A study of Mus musculus with 11 samples.

Results

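The axon guidance ligands and receptors of the adult mouse hypothalamus are described here across 11 RNA-seq libraries. They were taken by gene symbol from the deposited expression table, as every row named as a semaphorin, plexin, neuropilin, ephrin, Eph receptor, Slit, Robo, netrin, Unc5 receptor or Dcc. This gave 64 genes of the 14864 in the table, namely 19 semaphorins, 9 plexins, 2 neuropilins, 5 ephrins of class A and 3 of class B, 7 EphA and 5 EphB receptors, 3 Slits, 3 Robos, 3 netrins, and 5 receptors of the Unc5 and Dcc group.

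The libraries came from hypothalamus of mice aged 60 to 70 postnatal days. Of these, 5 were labelled wild type (WT; 2 females and 3 males) and 6 were labelled heterozygous (Het; 3 females and 3 males) in a study of loss of MYT1L, a neuronal transcription factor with zinc fingers. The comparison of Het with WT asks how losing a copy of Myt1l alters the hypothalamic transcriptome. No treatment is named in the labels, and the allele is not described in them. The series' text speaks of replicates without saying for RNA-seq that each is a separate animal, so p-values measure the spread between these samples. Values are CPM, counts on a per-million scale, recovered from the deposited log2 table, and 1 corrected count was worth 0.0417 to 0.0423 CPM. The columns share an upper quartile, 5.473 on the log2 scale, and not a common total. Corrected counts summed to 23701175 to 24941704 in the WT libraries and to 22921048 to 23799167 in the Het libraries. Totals thus ran lower in Het, with a small overlap. Depth of the raw reads is unknown.

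Myt1l itself had the same mean in both labelled groups, 76.3 ± 15.9 CPM (SD, n = 5) in WT and 76.3 ± 26.9 CPM (SD, n = 6) in Het, with a limma log2 difference of -0.01 (adjusted p = 0.976). The library labelled WT replicate 11 held the lowest Myt1l level of all, 51.1 CPM, and the library labelled Het replicate 9 the highest, 130 CPM, so both went against their labels. The other WT libraries held 70.5 to 89.3 CPM and the other Het libraries 58.7 to 75.9 CPM. The equal means thus rest on the 2 libraries at odds with their labels. Whether their labels were exchanged was not tested. Groups below are as labelled, and the main results are also given without these 2 libraries. Of 18 hypothalamic marker genes fixed as a list, 17 were in the table and none was at 0 in any library.

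Guidance molecules steer growing axons by attraction and repulsion. Semaphorins signal through plexins, and the secreted class 3 semaphorins mostly need neuropilins as co-receptors. Ephrins are membrane-bound ligands of the Eph receptor tyrosine kinases and can also signal back into the cell that carries them. Slits repel through Robo receptors. Netrins attract through Dcc and repel through Unc5 receptors. In the adult brain many of these genes stay expressed and act at synapses, on glia and on vessels.

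Levels were compared between genes as CPM per kilobase of exon, with all annotated exons of a gene merged. A long annotation lowers this measure. Slit2 had 8.17 CPM over 25.4 kb (0.321 CPM per kb), and Slit1 had 3.46 CPM over 5.92 kb (0.585 CPM per kb). Efnb3, a transmembrane ephrin of class B, was highest at 18.4 ± 2.12 CPM per kb (SD, n = 11), and its lowest library, 14.8, lay above the highest library of every other member. Sema4a, a transmembrane semaphorin, followed at 8.91 ± 1.40, and Efna5, a lipid-anchored ephrin, at 8.12 ± 1.08. These 2 overlapped across libraries, from 7.11 to 12.2 for Sema4a and from 6.62 to 10 for Efna5. Efna1 (5.38 ± 0.883), Sema4d (5.09 ± 0.538) and Ephb6 (4.79 ± 0.715), an Eph receptor with an inactive kinase domain, also overlapped one another. Epha4 was the highest EphA receptor at 3.83 ± 0.815, above Epha7 at 2.86 ± 0.435. Nrp1 had 2.63 ± 0.239 CPM per kb and Nrp2 had 1.29 ± 0.178, with no overlap between their libraries.

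The ligand families differed widely in summed level, over unlike numbers of members. Summed over their members, the semaphorins reached 29.0 ± 2.18 CPM per kb (SD, n = 11), the class B ephrins 21.7 ± 2.36 and the class A ephrins 18.9 ± 1.71, against 1.35 ± 0.286 for the Slits and 1.13 ± 0.237 for the netrins. Efnb3 alone made up 84.5% of the class B ephrin sum. The receptor sums ran from 9.82 ± 1.13 CPM per kb for EphA, 8.66 ± 0.708 for EphB and 8.41 ± 0.727 for the plexins through 6.00 ± 0.586 for Unc5 and Dcc down to 3.92 ± 0.391 for the neuropilins and 1.81 ± 0.255 for the Robos. Adjacent receptor families at the top of that order overlapped across libraries.

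**Figure D1:**
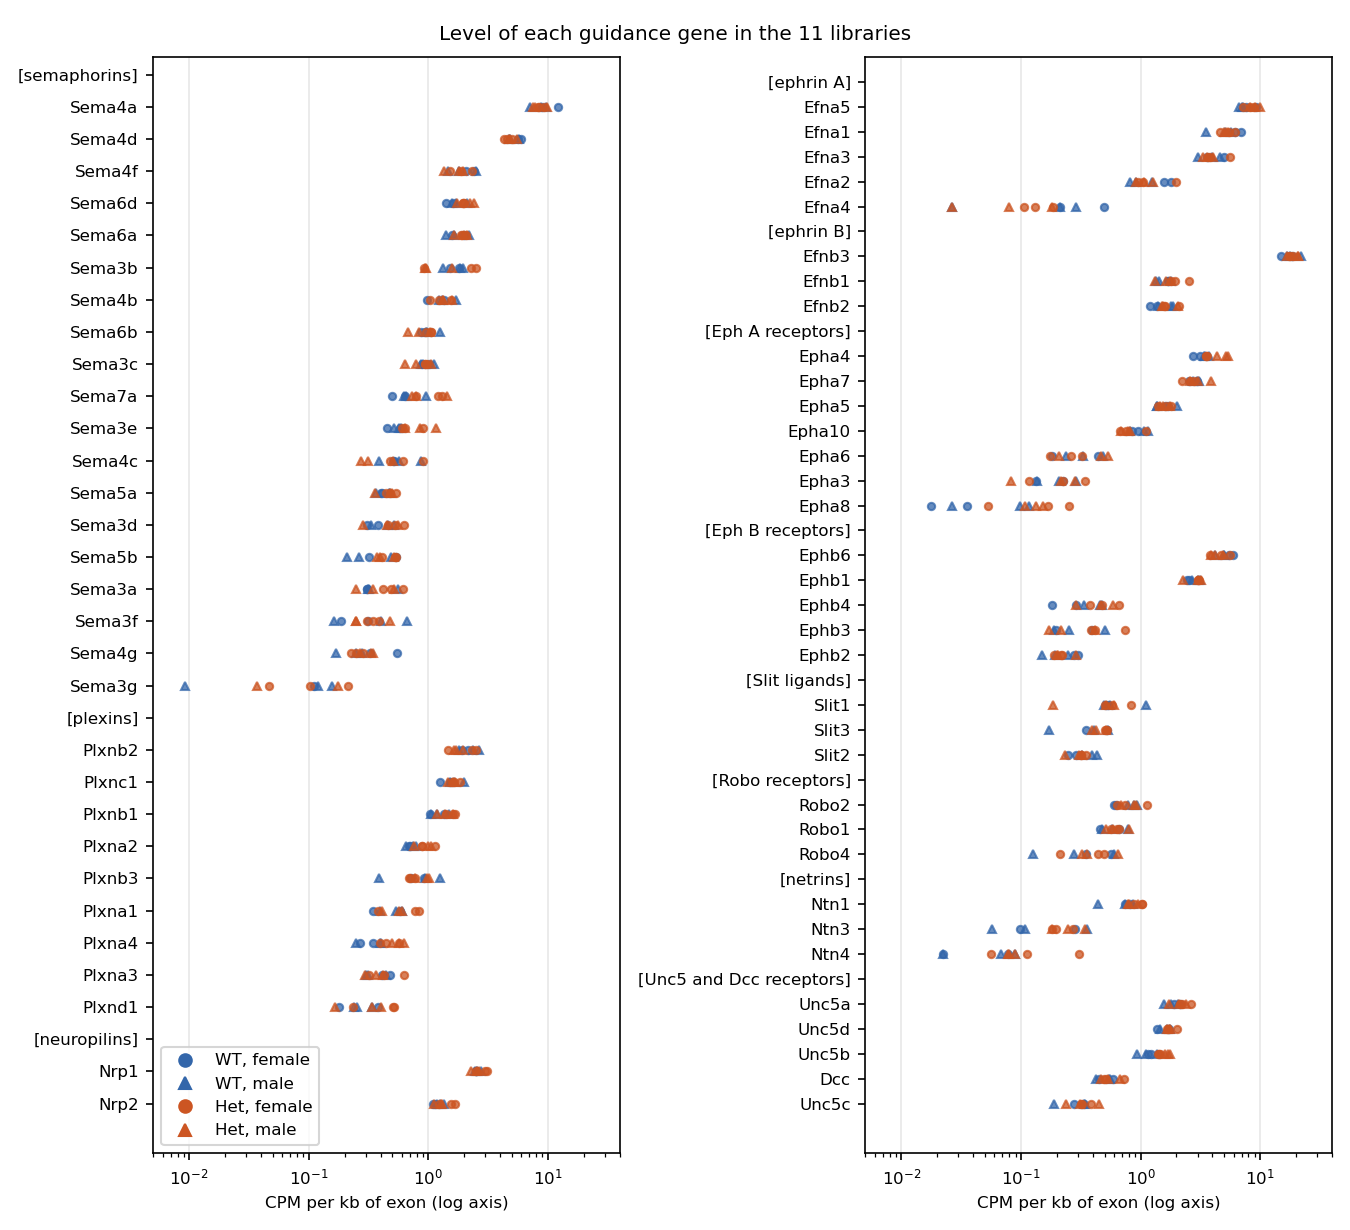
Level of each of the 64 genes in every library, in CPM per kilobase of exon on a log axis, by family, with WT in blue, Het in orange, females as circles and males as triangles. Efnb3 stands above all others at a mean of 18.4, and Sema3g, Ntn4, Epha8 and Efna4 are lowest; a value of 0, found for Sema3g in WT replicate 6 and Het replicate 5, cannot be drawn on this axis.

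Too low to be tested were 4 members with a mean under 1 CPM. Efna4 had 0.394 ± 0.271 CPM (SD, n = 5) in WT and 0.189 ± 0.0983 (SD, n = 6) in Het, and Sema3g had 0.361 ± 0.320 and 0.434 ± 0.381. Epha8 had 0.277 ± 0.212 in WT and 0.680 ± 0.311 in Het, and Ntn4 had 0.210 ± 0.118 and 0.449 ± 0.346. The highest value among them was 1.18 CPM, for Epha8 in Het replicate 2. Ntn3 was tested on a mean of 1.08 CPM over all libraries, although its WT mean was 0.923.

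Of the 60 members tested, 2 differed between the genotypes at a limma adjusted p under 0.05, Epha4 and Plxna4, both receptors and both higher in Het. Across all 13184 genes tested, 3.44% were called, 2.3% as higher and 1.14% as lower. At an unadjusted p under 0.05, 7 members were higher and none lower, beside 22.3% of all genes passing and 10.6% higher at that level. The difference was positive for 40 of 60 members (66.7%) with a median of 0.11 on the log2 scale, where 47% of all genes tested were positive and their median was -0.0161. Under median centring 38 members were positive, with a median of 0.09, beside 5598 of all 13184 genes, with a median of -0.041. Without the libraries labelled WT replicate 11 and Het replicate 9, 39 members were positive, with a median of 0.13, and 0 were called. In that setting 6411 of all genes were positive, with a median of -0.00762, and 229 were called. The median 95% interval of a member reached 0.32 log2 units to each side, against 0.24 for all genes.

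Positive differences were spread unevenly over the families. All 5 Unc5 and Dcc receptors, all 3 Robos, both neuropilins and 8 of 9 plexins had positive differences, with medians of 0.16, 0.13, 0.10 and 0.22; under median centring and under quantile normalization 7 plexins did. The EphA receptors had a median of -0.00, with 2 of 6 positive (1 under median centring and 3 under quantile normalization), and the EphB receptors had 0.09. Among the ligands, 10 of 18 semaphorins, 1 of 4 class A ephrins and 1 of 3 Slits were positive, against all 3 class B ephrins and both netrins tested. Without the libraries labelled WT replicate 11 and Het replicate 9 the medians were 0.28 for Unc5 and Dcc, 0.35 for the plexins (7 of 9 positive) and 0.27 for the class B ephrins (0.14 with all libraries). In that setting the Robos had 2 of 3 positive, the EphA receptors 1 of 6 (median -0.10), the class A ephrins 2 of 4 and the Slits 2 of 3, whose median went from -0.10 to 0.16. These counts describe the families and were given no test.

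**Figure D2:**
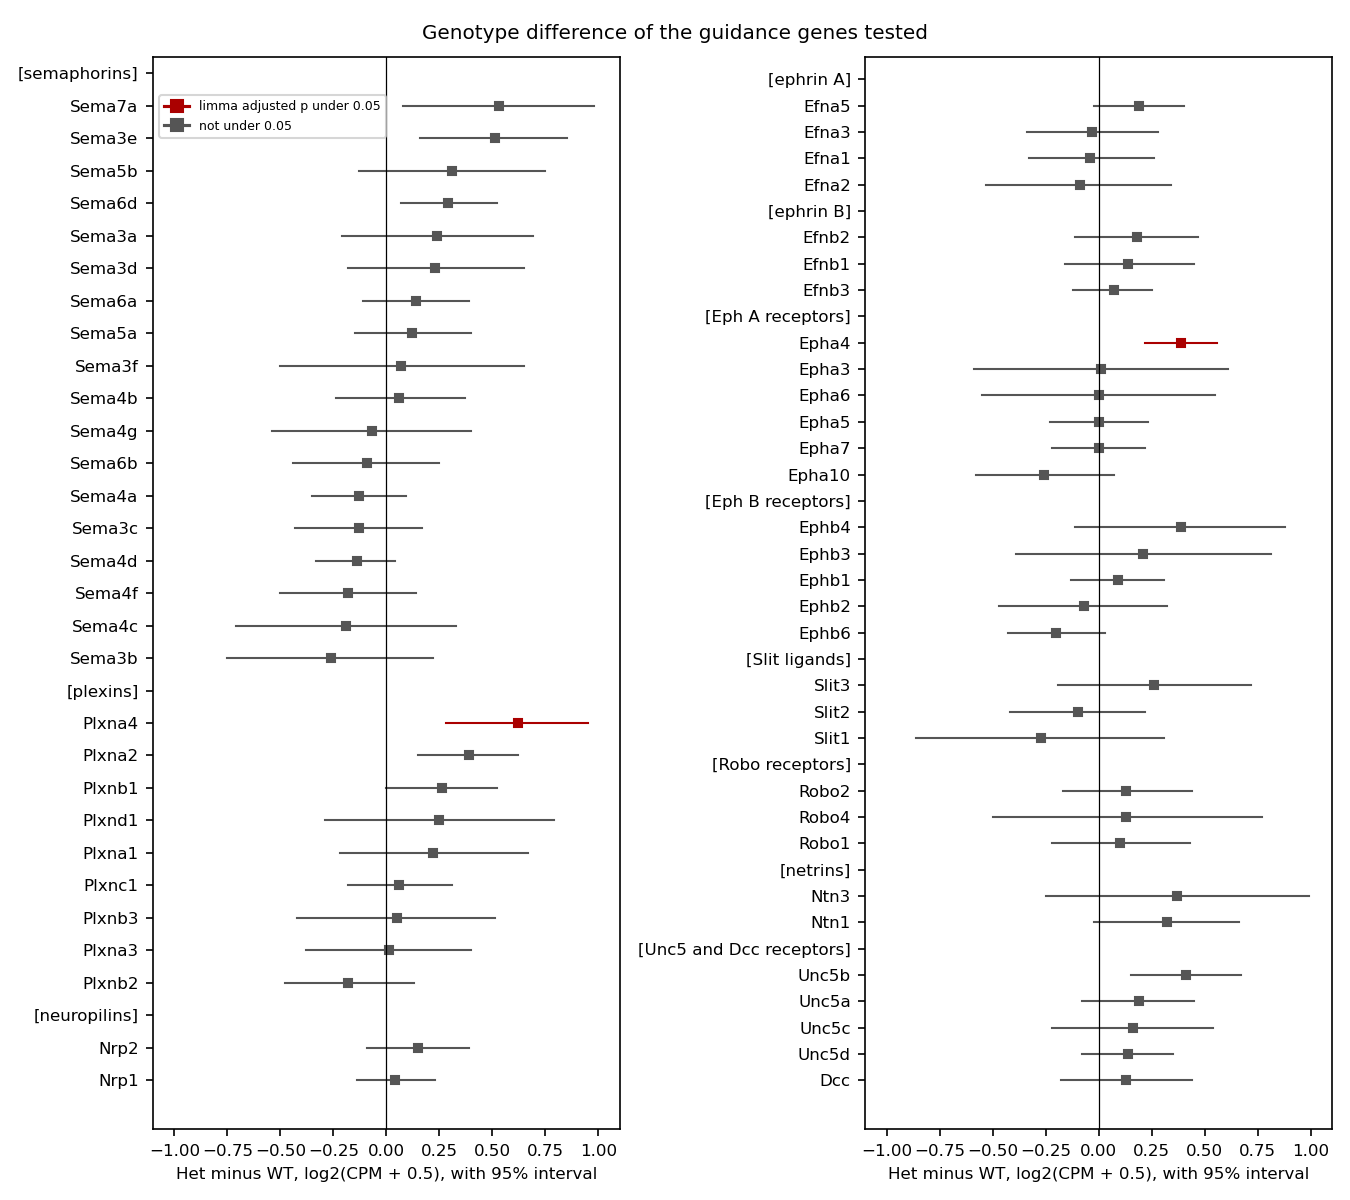
Het minus WT difference of each of the 60 tested genes with its 95% interval, on the log2(CPM + 0.5) scale, by family. Epha4 at 0.39 and Plxna4 at 0.62 are the genes with an adjusted p under 0.05, and 40 of the 60 points lie to the right of 0.

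Among the 13 marker lists, the striatal and hypothalamic lists had the largest shares of genes called, 40% and 29.4%. Of all genes tested, 3.44% were called and 47% were positive. All 15 striatal markers had positive differences, and 6 rose (Drd1, Adora2a, Pde10a, Rasd2, Adcy5 and Bcl11b). The summed level of the 15 was 2013 to 2565 CPM in WT (mean 2245) and 2262 to 4061 CPM in Het (mean 2794). Penk, which was not called (limma adjusted p = 0.117), was the largest part of these sums. It had means of 1125 CPM in WT and 1471 CPM in Het, with a Het maximum of 2423 CPM. Of 17 hypothalamic markers, 1 was positive and 5 fell (Avp, Oxt, Hcrt, Pmch and Gal), with sums of 3274 to 4234 CPM in WT and 2265 to 3593 CPM in Het. Without the libraries labelled WT replicate 11 and Het replicate 9, 6 striatal and 3 hypothalamic markers were called, beside 229 of all 13184 genes. Het replicate 9 had both the highest striatal sum and the lowest hypothalamic sum. None of 8 meningeal fibroblast markers was positive, and 1 (Dcn) fell, with sums of 160 to 203 CPM in WT and 88.9 to 243 CPM in Het. The endothelial marker Slc2a1 fell, and the thalamic marker Tcf7l2, the astrocyte marker Slc1a2 and the progenitor marker Gpr17 rose, each as the 1 called gene of its list. Each of these 4 lists held markers of both signs. Positive were 3 of 8 endothelial, 6 of 9 thalamic, 4 of 8 astrocyte and 6 of 8 progenitor markers. Lists for neurons, oligodendrocytes, microglia, mural cells, cortex and hippocampus, and ependyma had no called gene. Without the 2 libraries at odds with their labels the astrocyte list had 1 call, and the thalamic, progenitor, endothelial and meningeal lists came to 0. The striatal, hypothalamic and meningeal markers were at 0 in no library. The part of these shifts in the differences of the guidance genes was not tested, and in bulk tissue fewer cells of a type and less RNA per cell cannot be told apart.

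Epha4, a receptor that binds ephrins of both classes and that acts in axon repulsion and at dendritic spines, rose in Het. It lies on chromosome 1 of mm10 from 77367185 to 77515088, on the minus strand. WT replicates 3, 4, 6, 7 and 11 had 27.8, 25.5, 22.0, 27.2 and 30.1 CPM, and Het replicates 2, 4, 5, 7, 8 and 9 had 28.6, 29.1, 35.3, 28.5, 41.7 and 43.1 CPM. WT replicate 11, the highest WT library, overlapped the Het females 2, 4 and 7, while the Het males 5, 8 and 9 lay above every WT library. Means were 26.5 ± 3.01 CPM (SD, n = 5) and 34.4 ± 6.73 CPM (SD, n = 6), and Het exceeded WT by 0.39 log2 units (SE 0.08, limma adjusted p = 0.0196; exact two-sided permutation p = 0.005 within sex, the smallest the 200 arrangements can give).

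The Epha4 difference kept its direction within each sex and within the identifier prefixes 14308 and 14309, which the descriptions give to the libraries. It was 0.27 in females alone and 0.48 in males alone, and 0.47 and 0.43 within prefixes 14308 and 14309. WT replicate 4 alone carries prefix 14111 and enters neither prefix. The splits share libraries, since prefix 14308 holds only males and every Het female carries 14309. In none did Epha4 pass (limma adjusted p = 0.313, 0.179, 0.256 and 0.193). Left out in turn, Het replicate 8 (0.36, limma adjusted p = 0.0584), WT replicate 6 (0.38, adjusted p = 0.0652) and Het replicate 9 (0.35, adjusted p = 0.0567) each ended the call, as did leaving out WT replicate 11 with Het replicate 9 (0.36, adjusted p = 0.0546). A fit without the sex term also ended it (0.35, limma adjusted p = 0.138). The Het males, highest for Epha4, also had the lowest hypothalamic sums of all libraries, 2629, 2743 and 2265 CPM. Epha4 was higher in males among WT as well, with means of 28.4 CPM in males and 23.8 CPM in females. A link between Epha4 and the hypothalamic sums was not tested.

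Other Eph receptors did not pass the test. Epha7, close to Epha4 in level, had 22.0 to 38.7 CPM over the 11 libraries, with a difference near 0. Epha10, another kinase-inactive receptor, had 6.98 ± 1.05 CPM in WT and 5.79 ± 1.15 in Het (log2 difference -0.26, limma adjusted p = 0.337). For Ephb6 the means were 19.4 ± 2.55 and 17.0 ± 2.52 CPM (-0.20, limma adjusted p = 0.291). Ephb4, a receptor of vascular development, had 1.62 ± 0.577 and 2.21 ± 0.631 CPM (0.39, limma adjusted p = 0.339), the same log2 size as Epha4 at a far lower level. Ephb1 ran from 16.0 to 22.5 CPM and its groups overlapped.

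Their ligands showed no call either. Efna5, which binds EphA receptors and is a ligand of Epha4, had 30.4 ± 4.07 CPM in WT and 34.7 ± 3.83 CPM in Het (0.19, limma adjusted p = 0.272). Efnb2 had 10.5 ± 2.02 and 11.8 ± 1.85 CPM (0.18, limma adjusted p = 0.454). The abundant Efnb3 ran from 47.3 to 70.7 CPM in WT and from 53.4 to 66.0 CPM in Het, so that the Het libraries fell within the WT range.

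Plxna4, a plexin that transduces class 3 and class 6 semaphorin signals, was the other member that rose. WT replicates 3, 4, 6, 7 and 11 had 5.57, 4.84, 3.82, 3.52 and 5.67 CPM, and Het replicates 2, 4, 5, 7, 8 and 9 had 6.30, 5.54, 6.96, 8.05, 8.88 and 8.06 CPM. Het replicate 4 lay inside the WT range and the other Het libraries lay above it. The means were 4.68 ± 0.984 CPM (SD, n = 5) and 7.30 ± 1.26 CPM (SD, n = 6), and Het exceeded WT by 0.62 log2 units (SE 0.16, limma adjusted p = 0.0413; exact two-sided permutation p = 0.01). It was 0.55 in females and 0.66 in males, and 0.76 and 0.61 within prefixes 14308 and 14309. In none of these splits did Plxna4 pass (limma adjusted p = 0.301, 0.303, 0.328 and 0.357).

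The Plxna4 call with all libraries was close to the threshold. It was lost without WT replicate 4, 6 or 7, and without Het replicate 2, 5, 7, 8 or 9, each left out alone, with limma adjusted p from 0.0575 to 0.123, and without WT replicate 11 and Het replicate 9 together (0.65, adjusted p = 0.0784). It was also lost with 1 residual degree of freedom taken off for the deposited correction (adjusted p = 0.0772), under quantile normalization (0.0613), without the sex term (0.0742) and with the identifier prefix as a block (0.0579). An antisense gene, Plxna4os3, overlaps 0.78% of Plxna4's exon length on the other strand. The sources used here do not say whether counting was stranded, and 13 members have such an opposite-strand overlap, over 5% of the exon length in Efna3, Efna4, Plxna1 and Sema4c.

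Plxna2, a close relative of Plxna4, missed the threshold. Its WT libraries held 11.2 to 13.5 CPM (median 12.2) and its Het libraries 13.1 to 19.4 CPM (median 16.2), with means of 12.3 ± 0.857 and 16.4 ± 2.29. The log2 difference was 0.39 (limma adjusted p = 0.0652, exact permutation p = 0.01), and only Het replicate 8 fell inside the WT range. Without WT replicate 3 it passed (0.42, adjusted p = 0.0437). Among the other plexins, Plxnb2, a receptor of class 4 semaphorins and the most abundant plexin per kilobase, had 16.8 ± 2.62 and 15.0 ± 3.16 CPM (-0.18, limma adjusted p = 0.491), and Plxnc1, the Sema7a receptor, ran from 10.5 to 16.7 CPM in WT and 12.3 to 15.3 CPM in Het.

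Sema3e, a secreted ligand that binds Plxnd1 without a neuropilin, had no overlap between the groups. Its WT libraries held 5.48, 4.22, 5.41, 4.78 and 5.25 CPM (replicates 3, 4, 6, 7 and 11) and its Het libraries 5.58, 8.39, 5.95, 5.95, 7.87 and 10.7 CPM (replicates 2, 4, 5, 7, 8 and 9). The gap between the groups was small, since the highest WT library had 5.48 CPM and the lowest Het library 5.58 CPM. With a log2 difference of 0.51 and a limma adjusted p of 0.0910 (exact permutation p = 0.01, unadjusted), Sema3e was not called. The groups did not overlap for 2 members, Sema3e and Unc5b, both higher in Het, where 2.02% of all genes tested were higher without overlap and 3.35% did not overlap in either direction.

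Sema6d, a transmembrane ligand of Plxna1 and Plxna4, had 14.9 to 22.4 CPM in WT (median 17.1) and 18.4 to 25.5 CPM in Het (median 20.8). Its log2 difference was 0.29 (limma adjusted p = 0.118), and without WT replicate 3, the highest WT library, it was 0.36 and passed (adjusted p = 0.0430). Sema7a, a lipid-anchored semaphorin named after its values were seen, had 2.22 ± 0.577 and 3.45 ± 1.02 CPM (0.53, limma adjusted p = 0.160). The 2 most abundant semaphorins lay on the other side of 0. Sema4a had 50.6 ± 10.1 CPM in WT and 46.2 ± 4.81 in Het (-0.13, limma adjusted p = 0.491), and Sema4d, the Plxnb1 ligand, had 41.2 ± 4.25 and 37.3 ± 3.33 (-0.14, adjusted p = 0.338).

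The neuropilins were among the steadiest members. Nrp1 had the lowest coefficient of variation of the 64 genes, 9.08% over 11 libraries, with 24.0 to 27.1 CPM in WT and 22.2 to 30.5 CPM in Het. Nrp2 had 14.3 ± 1.19 and 16.1 ± 2.45 CPM (log2 difference 0.15, limma adjusted p = 0.452). Sema3b, a class 3 ligand named after its values were seen, split the Het libraries instead. Het replicates 2 and 4 had 10.8 and 12 CPM, and replicates 7, 8 and 9 had 4.44 to 4.58 CPM, outside the WT range of 6.33 to 9.35 CPM on both sides, while replicate 5 had 7.55 CPM, inside it. The meningeal fibroblast sum was 243 and 192 CPM in Het replicates 2 and 4 and 88.9 to 138 CPM in replicates 7, 8 and 9, but also 137 CPM in replicate 5, and its part in the Sema3b levels was not tested.

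**Figure D3:**
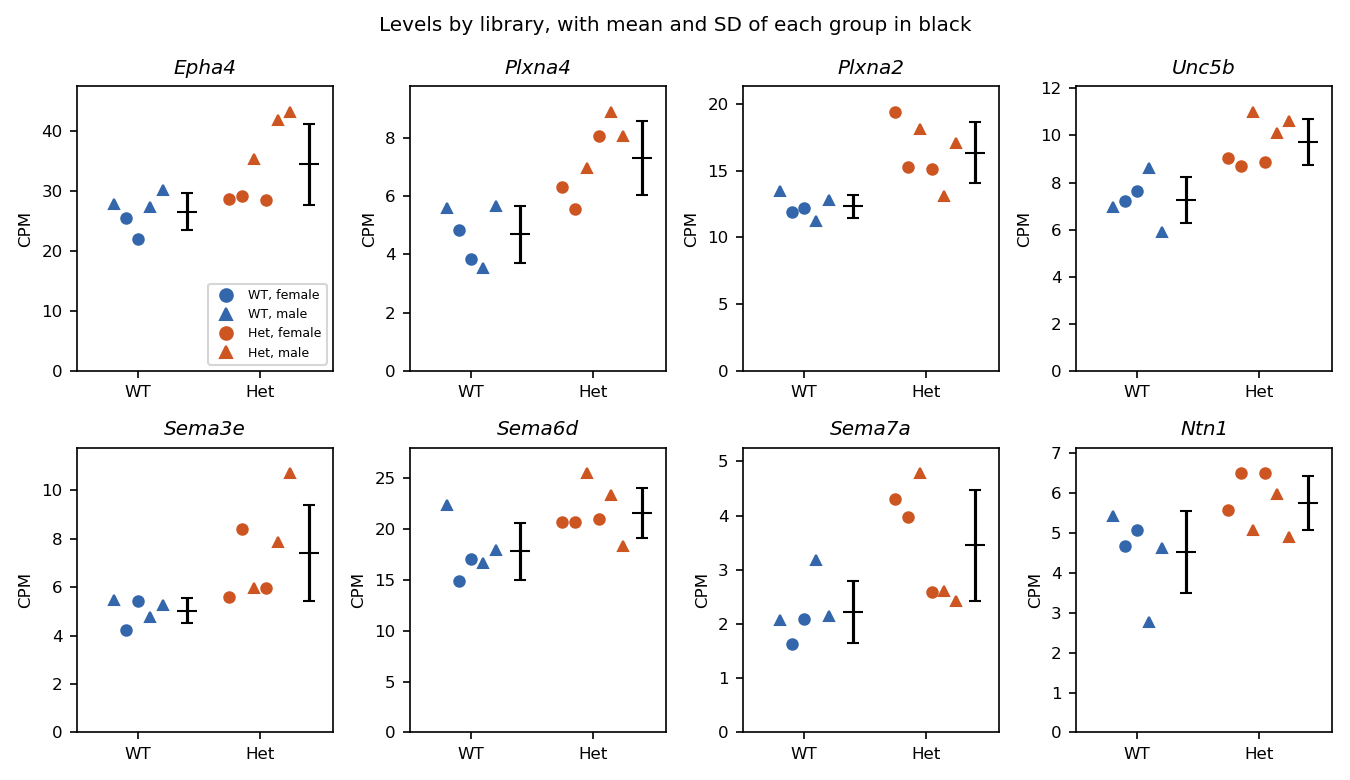
CPM of 8 members in each library on axes that start at 0, WT in blue beside Het in orange, females as circles and males as triangles, with the mean ± SD of each group in black. The Epha4 panel shows the Het males above every WT library, and the Unc5b and Sema3e panels show groups that do not overlap.

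Unc5b, a netrin receptor that mediates repulsion and is also expressed on endothelial cells, was higher in every Het library than in any WT library. WT replicates 3, 4, 6, 7 and 11 had 6.96, 7.22, 7.64, 8.60 and 5.88 CPM, and Het replicates 2, 4, 5, 7, 8 and 9 had 9.04, 8.72, 11.0, 8.89, 10.1 and 10.6 CPM. The separation was narrow, between WT replicate 7 at 8.60 CPM and Het replicate 4 at 8.72 CPM. Means were 7.26 ± 0.990 and 9.72 ± 0.966 CPM, a log2 difference of 0.41 with an interval from 0.15 to 0.67. Unc5b was not called across all genes (limma adjusted p = 0.0731). Its exact permutation p of 0.005 is unadjusted, and a gene named for groups without overlap is bound to have a small one. The summed endothelial markers, 243 to 333 CPM in WT and 219 to 281 CPM in Het, overlapped between the groups. Slc2a1 (115 CPM) and Ly6c1 (96.7 CPM) made up most of the WT mean sum of 283 CPM. A link between these sums and Unc5b was not tested.

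Other members of the netrin pathway also had positive differences without passing the test. Unc5a had 7.91 ± 0.939 and 9.19 ± 1.27 CPM (0.19, limma adjusted p = 0.398), and Unc5d had 14.8 ± 1.66 and 16.3 ± 1.26 CPM (0.14, limma adjusted p = 0.446). Dcc, the attractive netrin receptor, ran from 5.63 to 7.68 CPM in WT and from 6.20 to 9.56 CPM in Het. Summed per kilobase, the 5 receptors held 5.18 to 6.01 CPM per kb in WT and 6.10 to 6.84 CPM per kb in Het, without overlap. The gap was narrow, and Unc5b, itself without overlap, is part of this sum. In every other family the WT and Het sums overlapped, and no family sum was tested. Their ligand Ntn1 had 4.52 ± 1.03 and 5.76 ± 0.688 CPM (0.32, limma adjusted p = 0.252), and the low Ntn3 had 0.923 ± 0.668 and 1.21 ± 0.330 CPM (0.37, limma adjusted p = 0.476).

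For the 3 Slits and 3 Robos the WT and Het libraries overlapped, and none passed the test. Slit1 had 2.91 to 6.64 CPM in WT and 1.09 to 4.91 CPM in Het; its highest library was WT replicate 11 and its lowest was Het replicate 9, the 2 libraries whose Myt1l level went against the labels. Its difference was -0.27 with all libraries and 0.16 without these 2. Slit2 ran from 6.30 to 11.0 CPM in WT and from 5.92 to 8.87 CPM in Het. Slit3 had 2.42 ± 0.891 and 2.91 ± 0.339 CPM (0.26, limma adjusted p = 0.497). Robo1 and Robo2, the Slit receptors of neurons, had 7.51 to 13.1 and 10.2 to 15.8 CPM in WT, and 8.55 to 13.2 and 10.9 to 19.1 CPM in Het.

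The upstream sequence is shown for the called Epha4 and for the pair whose groups did not overlap, as the stretches next to their starts. MYT1-family zinc fingers bind a core of AAGTT, so AAGTT and its reverse complement AACTT were searched together in the 250 bases upstream of each start in RefSeq's GRCm38.p6 annotation. They stand for the same site on either strand, and no other motif was searched. Each line is 5′ to 3′ on the gene's own strand, in lower case, with any match in capitals. Epha4 is chr1:77515089-77515338 on the minus strand, Unc5b is chr10:60831582-60831831 on the minus strand and Sema3e is chr5:14025026-14025275 on the plus strand.
Epha4: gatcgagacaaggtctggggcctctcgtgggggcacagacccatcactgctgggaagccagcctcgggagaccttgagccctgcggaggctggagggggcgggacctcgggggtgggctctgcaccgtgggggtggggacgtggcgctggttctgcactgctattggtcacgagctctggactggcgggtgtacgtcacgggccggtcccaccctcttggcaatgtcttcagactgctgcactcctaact
Unc5b: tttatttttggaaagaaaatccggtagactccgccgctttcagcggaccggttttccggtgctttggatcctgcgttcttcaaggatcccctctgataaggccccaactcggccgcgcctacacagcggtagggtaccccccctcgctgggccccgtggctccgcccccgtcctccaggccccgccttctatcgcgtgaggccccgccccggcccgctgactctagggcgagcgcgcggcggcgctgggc
Sema3e: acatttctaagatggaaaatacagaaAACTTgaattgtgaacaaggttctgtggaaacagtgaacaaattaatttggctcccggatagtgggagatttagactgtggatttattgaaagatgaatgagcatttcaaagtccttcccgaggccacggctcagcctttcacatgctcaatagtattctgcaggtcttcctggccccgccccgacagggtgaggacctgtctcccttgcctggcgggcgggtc
Sema3e held 1 match and the others none. They also differed in CG pairs, with 14 in Epha4, 27 in Unc5b and 7 in Sema3e. Over 54 of the 64 members matched by symbol, Plxna4 not among them, 15 of 69 promoters held the word (21.7%), beside 11607 of 32851 promoters of all genes (35.3%). A match is a description of these letters and no measure of binding.

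Sex moved no member past the threshold. With limma 0 of 60 members were called between males and females, where 0.197% of all genes were, and 1 had an unadjusted p under 0.05, where 12.2% of all genes did. That gene was Epha4, higher in males by 0.37 on the log2 scale (SE 0.08, limma adjusted p = 0.0953), with means of 23.8 and 28.4 CPM in WT females and males and 28.7 and 40 CPM in Het females and males. No other tool was run.

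The genotype difference was not shown to differ between the sexes for any member. Limma's interaction term called 0 of 60 members and 0% of all genes; 3 members, Sema4g, Slit2 and Efna5, had an unadjusted p under 0.05, beside 4.65% of all genes. Slit2 had 6.80 CPM in WT and 8.34 CPM in Het females, and 9.80 CPM in WT and 7.28 CPM in Het males (difference of differences -0.69, interval -1.24 to -0.13, limma adjusted p = 0.982). Efna5 had 33.9 and 32.7 CPM in females and 28.0 and 36.7 CPM in males (0.43, interval 0.06 to 0.80, limma adjusted p = 0.982). Sema4g, with 3.79 and 2.20 CPM in females and 2.02 and 2.74 CPM in males (1.01, interval 0.21 to 1.82, limma adjusted p = 0.982), rested on 2 WT females of 4.72 and 2.85 CPM. For Epha4 the term was 0.21, with an interval from -0.13 to 0.56.

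Other genes of the pathways were read from lists of co-receptors and adhesion partners, and of intracellular effectors. Both lists were chosen with earlier results of these data known, so their counts describe the lists and were given no test. Of 28 partners tested, 2 rose and none fell (7.14%, beside 3.44% of all genes), with 21 positive and a median difference of 0.08. Among all genes tested, 2.3% were called higher and 47% were positive. Flrt2, a leucine-rich repeat protein that binds Unc5 receptors, had 9.98 to 12.5 CPM in WT and 15.1 to 18.4 CPM in Het. Its groups thus stood well apart, with means of 11.4 ± 1.02 and 16.5 ± 1.25 CPM (log2 difference 0.51, limma adjusted p = 0.0138), and it passed with each of the 11 libraries left out in turn. Lrrc4c, the netrin-G1 ligand of synapses, had 56.3 ± 5.23 and 72.3 ± 9.20 CPM (0.37, limma adjusted p = 0.0151). Without WT replicate 6 the partners called came to 1, where 140 of all genes were called. Without the 2 libraries at odds with their labels Flrt2 (limma adjusted p = 0.0392) and Lrrc4c (adjusted p = 0.0468) still passed.

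Of 55 effectors tested, 6 rose and none fell (10.9%, beside 3.44% of all genes), with 39 positive and a median of 0.12. Among all genes tested, 2.3% were called higher and 47% were positive. Gsk3b, a kinase that acts on the growth cone cytoskeleton, had 195 to 225 CPM in WT and 245 to 324 CPM in Het, with no overlap (0.40, limma adjusted p = 0.00641). It passed with each library left out in turn. Srgap3, a GTPase-activating protein that binds Robo receptors, had 15.4 ± 2.02 and 21.5 ± 1.99 CPM (0.48, limma adjusted p = 0.0196). Chn1, the chimaerin downstream of Epha4, had 240 ± 25.7 and 284 ± 28.1 CPM (0.26, limma adjusted p = 0.0239), and Pak3, a kinase activated by Rac and Cdc42, had 93.3 ± 5.21 and 111 ± 7.23 CPM (0.26, limma adjusted p = 0.0273). Dpysl2 and Dpysl3, collapsin response mediators of semaphorin signalling, were the remaining called genes.

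The effector count depended on single libraries, and so did the count of all genes called, 453 in the main fit. Leaving out WT replicate 4 or 6 gave 2 effectors, with 219 and 140 of all genes called. Leaving out Het replicate 2 or 9 also gave 2, with 220 and 180 of all genes. Leaving out WT replicate 7 or Het replicate 8 gave 3, with 243 and 191 of all genes. Without WT replicate 11 and Het replicate 9 together Gsk3b and Dpysl3 passed, and Srgap3 (0.44, limma adjusted p = 0.0650), Chn1 (0.23, adjusted p = 0.0664), Pak3 (0.27, adjusted p = 0.0519) and Dpysl2 (0.18, adjusted p = 0.108) did not; the list's median difference was 0.16. With the identifier prefix as a block Gsk3b and Dpysl2 passed. All genes called came to 300 with that block and to 229 without the 2 libraries.

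**Figure D4:**
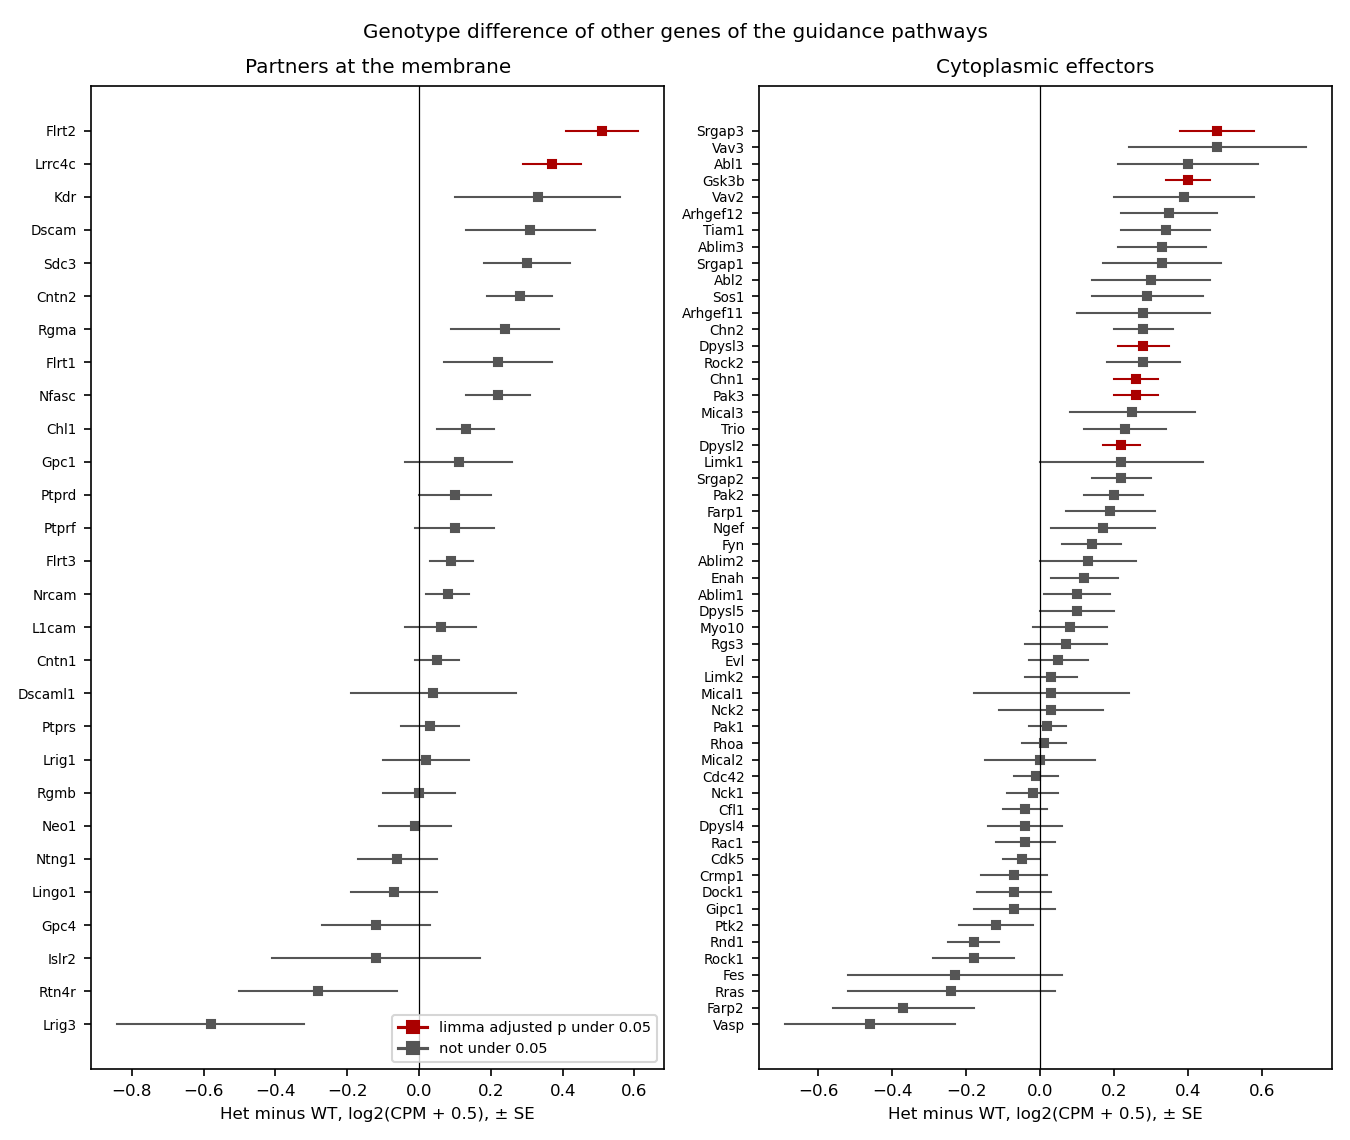
Het minus WT difference of each tested partner (left) and effector (right) on the log2(CPM + 0.5) scale, with bars of 1 SE to each side and genes with a limma adjusted p under 0.05 in red. The 2 partners and 6 effectors that passed all lie to the right of 0, with Flrt2 at 0.51 and Srgap3 at 0.48 the farthest of them in each panel.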

How the data were processed

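RNA-seq of 11 hypothalamus libraries was used. Per the submitters' processing notes, Trimmomatic, Bowtie2, STAR and HTSeq were used with mm10, and no versions are given. The deposited table holds log2 values of CPM with a small constant added. Its name says that RUVr had been applied; the sources used here do not give the design, factors or filter of that correction. Such a correction works on residuals, so p-values may be too small, and 1 residual degree of freedom was taken off as an alternative. Each column has a minimum of -3.574 and an upper quartile of 5.473. CPM was recovered by removing that minimum; all values were whole multiples of a step (100%, tolerance 0.02), and corrected counts summed to 22921048 to 24941704 per library.

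Genes with a mean of at least 1 CPM (13184; 1680 left out) entered a limma fit (version 3.58.1, R 4.3.3) on log2(CPM + 0.5), which understates changes of low genes, with genotype and sex as terms, a variance trend and Benjamini-Hochberg adjustment over all genes at 0.05. The script was tested on simulated data. The interaction was a second fit, and exact permutations kept sex fixed (200 arrangements). Permutation p-values are not adjusted for the number of genes. They are given for genes named by a small limma p or by groups without overlap, so they add no separate support. Exon lengths came from GENCODE M21 (14856 of 14864 IDs found). Intervals are 95%.

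Members, lists and the rule for naming were chosen with earlier results of these data known. The rule names members that passed or whose groups did not overlap, and per family the 2 highest per kilobase and the 2 smallest genotype p-values; of each pathway list, up to 4 called genes by smallest p. Marker lists numbered 13.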

Additional observations from a re-analysis of the deposited data

Results flagged for a closer look

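Of 120 groups checked (60 members in WT and in Het), 9 held a library far from the others of its group by Dixon's 95% critical value, 3 in WT and 6 in Het; chance alone flags about 1 in 20 groups. In WT, Slit1 stood high in replicate 11 at 6.64 CPM (next 3.31), Sema6b in replicate 11 at 5.00 CPM (next 3.88) and Sema3a in replicate 3 at 7.72 CPM (next 4.41). Replicate 11 is the WT library with the lowest Myt1l level. In Het, Efna2 and Efna3 stood high in replicate 4, at 4.24 CPM (next 2.69) and 13.7 CPM (next 9.85). Het replicate 7 was high for Epha10 at 7.97 CPM (next 5.94) and for Unc5d at 18.7 CPM (next 16.3). Ephb2 was high in Het replicate 9 at 3.61 CPM (next 2.77), and Ephb1 was low in Het replicate 5 at 16.0 CPM (next 21.1). None of these genes was called between the genotypes, and no Epha4 or Plxna4 library was far from its group by this measure.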

How the results depend on the processing

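The 2 members called between the genotypes stayed 2 under both other pseudocounts, without the filter and under median centring. The count was 1 under quantile normalization, 1 with 1 residual degree of freedom taken off and 1 with the identifier prefix as a block, 0 without the sex term, 0 without WT replicate 11 and Het replicate 9, and 0 to 4 with each library left out in turn. The partners (2) came to 1 without the sex term and to 1 to 3 with a library left out. The effectors (6) came to 2 without the sex term, 3 with 1 residual degree of freedom taken off and 2 with the prefix as a block. They came to 2 without WT replicate 11 and Het replicate 9, and to 2 to 7 with a library left out. All genes called moved as well. The main fit called 453, and the same settings in this order called 200, 189, 300 and 229. With a library left out, 140 to 820 of all genes were called. Within females, males, prefix 14308 or prefix 14309 alone, settings added after seeing the data, members, partners and effectors all came to 0, with fewer libraries. All genes called there came to 0, 1, 6 and 16. Sex and interaction counts were 0 under each alternative run. Of 750 values of 30 single genes, 114 lost their call and 2 gained it. Only the genes called in the main fit (2 members, 2 partners and 6 effectors) could lose a call. The 114 are therefore not to be read as a share of all 750 values. A change of sign was seen in 21 values, 18 of them by at least 1 standard error of the main difference, and 0 of these were of called genes.

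WT and Het share the replicate numbers 4 and 7. A replicate block on these 4 libraries called 0 members, 0 partners and 0 effectors, and 35 of all genes, with fewer libraries tested. Deviations of same-numbered libraries correlated at 0.131 (number 4) and -0.092 (number 7), so the numbers were not taken as paired samples. The planned count models (edgeR and DESeq2) were not run, since the table holds log2 values. Raw depth is unknown, so the precision of low members such as Sema3g is limited to the spread between libraries.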
